A study of Saccharomyces cerevisiae with 28 samples.

Results

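The gene expression of the yeast called HS in the labels was compared with that of the yeast called LS when both had been kept without sucrose. Both are baker's yeasts (Saccharomyces cerevisiae), and all samples had fermented for 60 min in a medium named LF, here with 0% sucrose. The comparison took the 2 HS arrays and the 2 LS arrays that the titles place at 0% sucrose, 4 of the 28 arrays of the series, and covered 5498 S. cerevisiae probe sets for 5449 genes. The other 24 arrays hold the same yeasts at 5, 10, 20, 30, 40 or 50% sucrose, with 2 arrays for each yeast and concentration. What HS, LS and LF stand for and the genotypes of the yeasts are not stated in the labels. Whether the 2 arrays of a yeast stem from different cultures is not stated, so the p-values reflect only array-to-array spread, which may be technical.

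Poly(A) RNA was read on Affymetrix arrays. Each deposited value relates a probe set to its usual level across the arrays, with 1 as that level. Such ratios allow a gene to be followed from array to array and do not rank genes against each other. Differences are given as HS minus LS in log2 ± SE from a limma model of all 28 arrays, with n = 2 arrays per yeast, and a gene is said to differ, or to be called, where the p-value adjusted over all 5498 probe sets (Benjamini-Hochberg) was under 0.05. With 2 arrays per yeast, precision is low throughout.

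Yeast that has sugar represses the genes for other carbon sources. When sugar is missing, cells turn on the glyoxylate cycle and gluconeogenesis, which build sugars from ethanol and acetate, together with the peroxisomal oxidation of fatty acids, and starving cells also raise stress, storage and autophagy genes, lower those of ribosomes and stop in the G1 phase of the cell cycle. The invertase, maltose and galactose genes are a separate layer: they are held down by glucose and serve to take up and split particular sugars.

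The 4 arrays were not equally usable. The array also carries probe sets of the fission yeast S. pombe, which serve as a background because no fission yeast was sampled. Their median ratio was 0.183 and 0.119 on the HS arrays, against 0.382 on the first and 8.44 on the second LS array. The first and second array correlated at r = 0.72 over S. cerevisiae probe sets in HS, against -0.20 in LS (a description across genes, with no test). Log2 ratios of S. cerevisiae probe sets had an interquartile range of 1.16 and 1.12 on the HS arrays, against 0.917 and 2.59 on the LS arrays. The second LS array thus stood apart from the first. The S. pombe median was also above 1 on 5 further LS arrays, all numbered 2 and taken at 5, 10, 20, 30 or 50% sucrose, which makes 6 such arrays in all. The leading results below are therefore also given with the first LS array alone or without the 6 arrays. The part of this background in any difference was not tested.

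**Figure D1:**
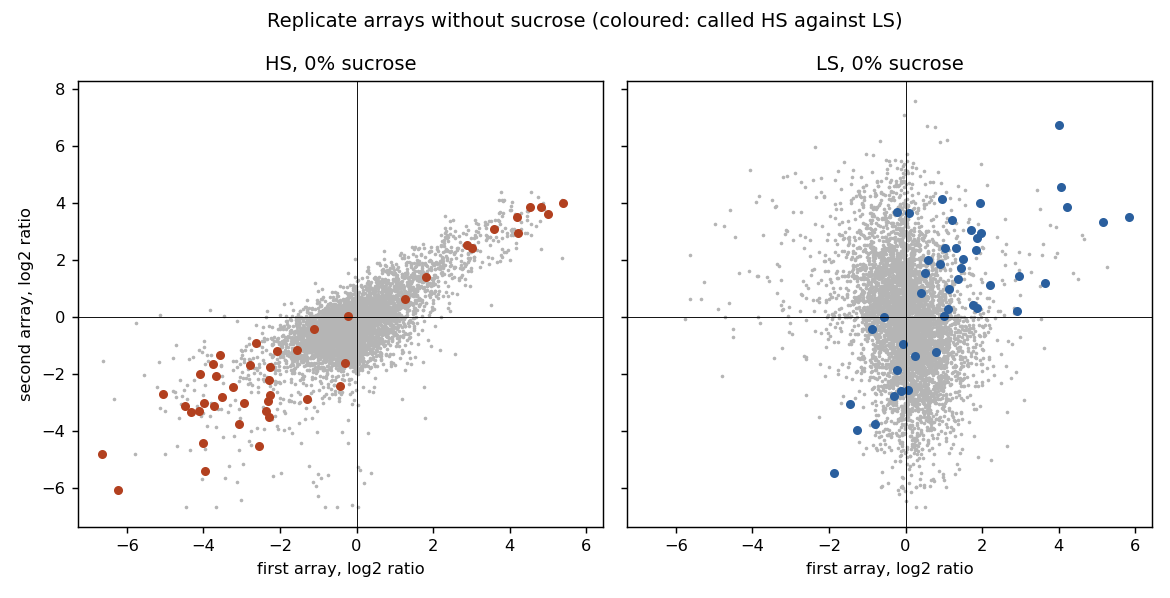
Log2 ratio on the first array (x axis) against the second array (y axis) of HS (left) and LS (right) at 0% sucrose, a point for each S. cerevisiae probe set, with the 45 probe sets that differed between the yeasts in colour. The HS pair correlated at r = 0.72 and the LS pair at r = -0.20, and the LS points spread more widely along the y axis.

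Without sucrose, 45 genes differed between the yeasts (0.818% of probe sets), 12 higher in HS (0.218%) and 33 lower in HS (0.6%). Counts of called list members below are to be read against these shares. The split shifted with the scaling, to 24 higher and 34 lower after quantile normalization, 19 higher and 31 lower after centring each array on its median, and 27 higher and 29 lower with an offset added before the log. The median difference of all genes was -0.09 as deposited and 0.09 after centring, and with the first LS array alone it was -0.30. For all 45 genes both HS arrays lay on the same side of both LS arrays. That is weak by itself, since the arrays of the yeasts did not overlap, with HS higher, for 16.4% of probe sets and, with HS lower, for 23% of them. Their direction with the first LS array alone is therefore fixed, and 31 of the 45 differences were then smaller.

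The count rested on single arrays. With the first LS array alone in an otherwise full fit, where the lone array is assumed to vary like the other groups, 2 genes were called (0.0364%), GAL10 and BIO5, both lower in HS, and 411 passed an unadjusted p under 0.05. With the second LS array alone 486 were called, without the second HS array 8, and without the first HS array 0 (limma, 369 at an unadjusted p under 0.05). When all 6 second LS arrays with raised S. pombe signal were left out, which also changes the spread that the model estimates for all genes, 650 probe sets were called (11.8%), 248 higher in HS (4.51%) and 402 lower (7.31%). Of all probe sets called in that fit, 422 had the same direction against the second LS array and the others did not. At 0% the fit holds the first LS array alone, so its differences equal those given with that array. Only the spread is estimated otherwise, as for ICL1, with an SE of 0.65 against 1.48. Passing without the 6 arrays is therefore no separate check of a difference, and the direction of the 45 genes was fixed in it.

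**Figure D2:**
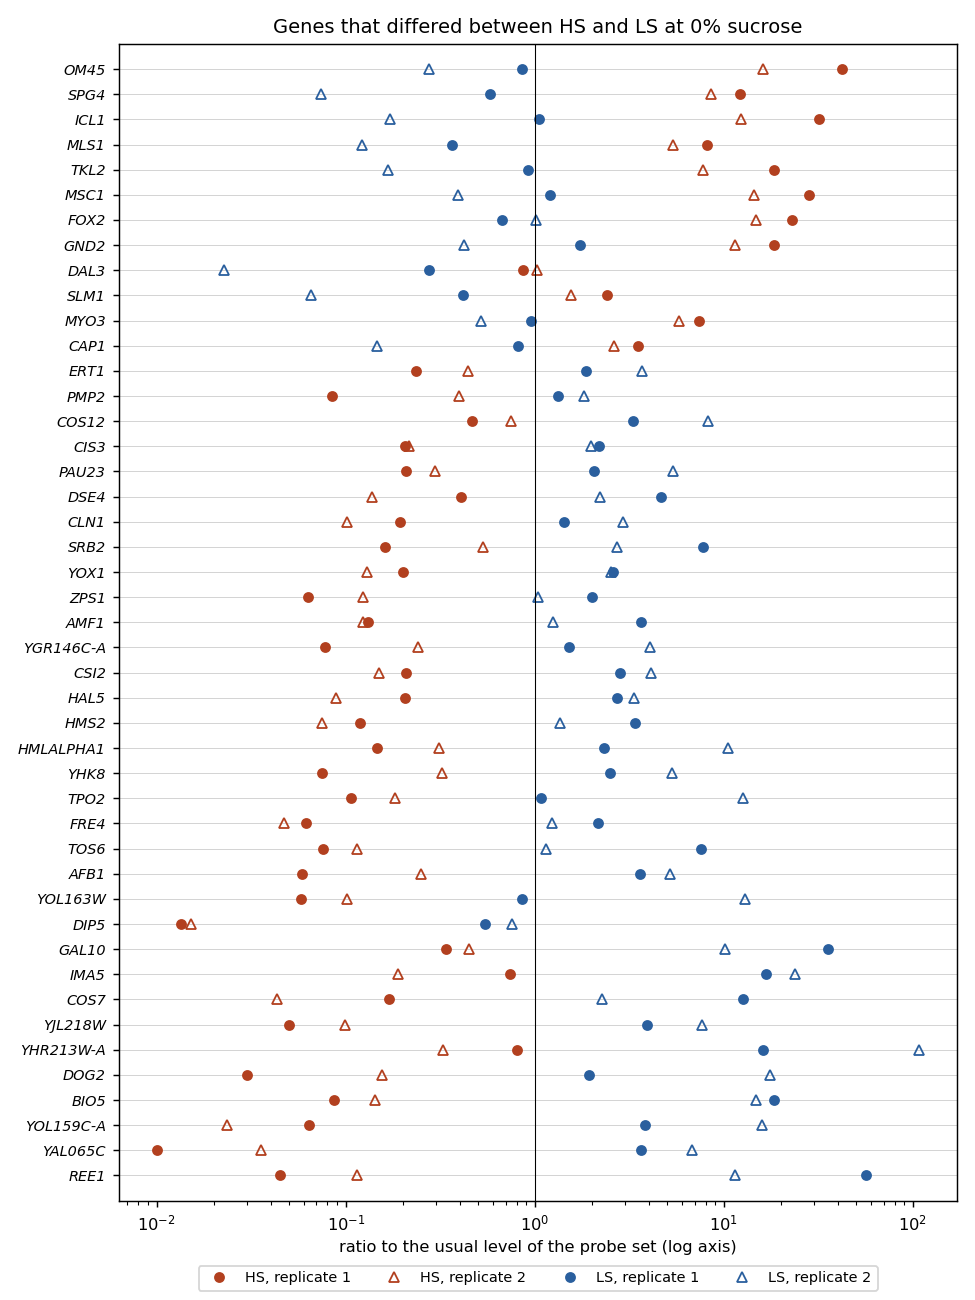
Ratio (log x axis) of the 45 genes that differed between HS and LS at 0% sucrose on each HS array (red) and each LS array (blue), from the most positive to the most negative difference. HS and LS points do not overlap for any gene, and the LS arrays can lie far apart, as for TPO2 (1.07 and 12.7).

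Among the genes higher in HS, the enzymes of the glyoxylate cycle were among those with the most positive differences. ICL1 (YER065C), the isocitrate lyase of the glyoxylate cycle, had ratios of 31.9 and 12.3 on the HS arrays and 1.05 and 0.172 on the LS arrays. Both LS arrays lay near or below the usual level of the gene, while both HS arrays lay far above it. Its difference was 5.54 ± 1.26 (46.4-fold, adjusted p = 0.0431), and 4.23 ± 1.48 with the first LS array alone (adjusted p = 0.430). MLS1, the malate synthase of the same cycle, had 8.10 and 5.39 in HS and 0.365 and 0.122 in LS, a difference of 4.97 ± 1.09 (adjusted p = 0.0379), or 4.18 with the first LS array alone (adjusted p = 0.340). In the list of gluconeogenesis and glyoxylate cycle genes, with 14 measured, these 2 were called higher (0.218% of all probe sets) and none lower. For 12 of the 14 the HS arrays lay above both LS arrays, against 16.4% of all probe sets. The median difference was 3.87, against -0.09 over all genes. It was 3.18 with the first LS array alone, against -0.30 over all genes.

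PCK1 and FBP1 make the enzymes that are particular to gluconeogenesis, phosphoenolpyruvate carboxykinase and fructose-1,6-bisphosphatase. PCK1 had 16.2 and 4.01 in HS and 0.933 and 0.288 in LS and fell just short of the threshold (difference 3.96 ± 0.94, adjusted p = 0.0502). FBP1 had 22 and 10.7 in HS and 0.405 and 1.58 in LS (4.26 ± 1.10, adjusted p = 0.0709). Both passed without the 6 arrays (adjusted p = 0.0438 for PCK1 and 0.0180 for FBP1). The same held for IDP2, a cytosolic isocitrate dehydrogenase, with 16.8 and 7.97 in HS and 0.253 and 2.52 in LS, and for SFC1, the carrier that exchanges succinate for fumarate at the mitochondrion, with 14.2 and 12.6 in HS and 0.386 and 1.16 in LS. ADH2, the alcohol dehydrogenase that consumes ethanol, showed no such gap, with 2.20 and 1.28 in HS and 1.37 and 1.56 in LS. Its difference was 0.20 ± 0.73, which leaves a change of either sign within its error.

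Peroxisomal fatty acid oxidation had 1 of 18 genes called higher in HS and none lower, against 0.218% and 0.6% of all probe sets. Its median difference was 1.90, or 2.55 with the first LS array alone. The called gene was FOX2, the multifunctional enzyme of the pathway, at 23 and 14.8 in HS and 0.674 and 1.01 in LS (4.48 ± 1.03, adjusted p = 0.0446). Its LS arrays agreed closely, so the difference was as large with the first one alone (4.77 ± 1.28), though its adjusted p was then 0.194. For 13 of the 18 the HS arrays lay above both LS arrays, against 16.4% of all probe sets. Among them were the thiolase POT1 (16.3 and 8.25 in HS, 0.531 and 3.26 in LS) and the catalase of peroxisomes, CTA1 (6.77 and 5.13 in HS, 0.462 and 2.50 in LS). PXA1, a subunit of the importer for fatty acids, shows why the second LS array matters: it had 14.2 and 17 in HS, against 0.281 and 11.1 in LS, so that its HS arrays stood far above only the first LS array.

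OM45 (YIL136W), a main protein of the mitochondrial outer membrane, had the most positive difference of all called genes. Its ratios were 42.2 and 16.2 in HS and 0.859 and 0.275 in LS, a difference of 5.75 ± 1.07 (53.8-fold, adjusted p = 0.0189), or 4.93 ± 1.28 with the first LS array alone (adjusted p = 0.183). SPG4, a gene needed in stationary phase, followed with 12.1 and 8.59 in HS and 0.577 and 0.0744 in LS (5.62 ± 1.14, adjusted p = 0.0255). The LS arrays of SPG4 differed from each other by more than its HS arrays did, and with the first alone the difference was 4.15 ± 1.28 (adjusted p = 0.323).

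A list of 28 osmotic and general stress genes had 3 genes called higher in HS and none lower, against 0.218% and 0.6% of all probe sets. Its median difference was 2.19, or 2.39 with the first LS array alone. The called members are not osmotic effectors. TKL2 and GND2 are the minor forms of transketolase and of 6-phosphogluconate dehydrogenase, both enzymes of the pentose phosphate pathway, and MSC1 is named for a role in meiotic recombination. TKL2 had 18.5 and 7.71 in HS and 0.919 and 0.168 in LS (4.93 ± 1.08, adjusted p = 0.0379). GND2 had 18.4 and 11.5 in HS and 1.72 and 0.424 in LS (4.09 ± 0.94, adjusted p = 0.0441). MSC1 had 28.2 and 14.5 in HS and 1.20 and 0.390 in LS (4.89 ± 1.03, adjusted p = 0.0284). All 3 had the second LS array below the first. With the first alone the differences were 3.70 for TKL2 (adjusted p = 0.418), 3.07 for GND2 (adjusted p = 0.442) and 4.08 for MSC1 (adjusted p = 0.303). For 16 of the 28 the HS arrays lay above both LS arrays, against 16.4% of all probe sets. Among them were NQM1, the minor transaldolase (19.8 and 10.2 in HS, 0.568 and 1.03 in LS), the stress gene DDR48 (18.1 and 6.02 in HS, 0.655 and 0.321 in LS) and STF2 (16.3 and 13.5 in HS, 1.92 and 1.04 in LS). The classic osmotic genes differed less: GPD1, which makes the precursor of glycerol, had 2.83 and 0.976 in HS and 0.811 and 0.769 in LS (1.07 ± 0.88, adjusted p = 0.651). HSP12, a small membrane-protecting heat shock protein, had 4.07 and 1.22 in HS and 1.05 and 0.601 in LS (1.49 ± 0.87, adjusted p = 0.485). STL1, an importer of glycerol, had 0.975 and 1.89 in HS and 0.675 and 0.260 in LS (1.69 ± 0.86, adjusted p = 0.405).

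Among storage and recycling genes, no member of the trehalose, glycogen or autophagy lists was called by limma with all arrays. At an unadjusted p under 0.05, 2 trehalose and 5 glycogen genes were higher in HS and none lower, and 3 autophagy and vacuolar genes were higher and 1 lower. Of all 5498 probe sets, 294 were higher and 423 lower at that p. The median difference of the 9 trehalose genes was 1.38, and 8 of the 9 had HS arrays above both LS arrays, against 16.4% of all probe sets. TPS1, the synthase that makes trehalose-6-phosphate, had 7.09 and 3.45 in HS and 1.61 and 0.223 in LS (3.04 ± 0.81, adjusted p = 0.0831). Its difference was 1.62 with the first LS array alone (adjusted p = 0.738), and it did not pass without the 6 arrays either (adjusted p = 0.131). The 13 glycogen genes had a median of 0.21 with both LS arrays, 1.69 with the first alone and -0.54 with the second alone. Their shift thus depended on which LS array was used. The 27 genes of autophagy and of vacuolar hydrolases had a median of 1.07, or 1.44 with the first LS array alone. HS arrays lay above both LS arrays for 12 of them and below for 2, against 16.4% and 23% of all probe sets. ATG8, the protein that coats forming autophagosomes, had 4.40 and 3.30 in HS and 0.532 and 0.986 in LS (adjusted p = 0.304, or 0.0222 without the 6 arrays). AMS1, the vacuolar mannosidase, had 26.8 and 18.8 in HS and 1.79 and 2.20 in LS (adjusted p = 0.222, or 0.0306 without the 6 arrays).

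Of the 34 proteasome subunit genes none was called by limma. At an unadjusted p under 0.05, 10 were higher in HS and none lower, against 294 and 423 of all 5498 probe sets. For 24 the HS arrays lay above both LS arrays and for none the reverse, against 16.4% and 23% of all probe sets. The median difference was 1.45, or 0.75 with the first LS array alone. There 32 of the 34 were positive, against 2219 of all 5449 measured genes. Of the 127 measured genes of cytosolic ribosomal proteins none was called by limma either. At an unadjusted p under 0.05, 26 were lower in HS and none higher, against 423 and 294 of all 5498 probe sets. For 81 the HS arrays lay below both LS arrays and for none above. The median difference was -1.38, or -1.19 with the first LS array alone, where all 127 were negative, against 3230 of the 5449. Their median ratio was 0.754 and 0.388 on the HS arrays and 1.24 and 1.76 on the LS arrays. An example was RPS9A (0.311 and 0.427 in HS, 1.62 and 1.52 in LS). Relative to the median of all genes, the sign of both lists was the same as deposited and after quantile normalization. Centring shifts all genes alike, so it cannot change that sign.

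The remaining called genes higher in HS were of other kinds. MYO3, a type I myosin of actin patches, had 7.38 and 5.76 in HS and 0.958 and 0.521 in LS (3.21 ± 0.66, adjusted p = 0.0268), and CAP1, a subunit of the actin capping protein, had 3.50 and 2.63 in HS and 0.819 and 0.147 in LS (3.13 ± 0.71, adjusted p = 0.0434). SLM1, a lipid-binding protein that acts downstream of the TORC2 kinase, had 2.41 and 1.55 in HS and 0.419 and 0.0651 in LS (adjusted p = 0.0379). DAL3, an enzyme of allantoin breakdown, had 0.862 and 1.02 in HS and 0.274 and 0.0228 in LS (3.57 ± 0.82, adjusted p = 0.0449). With the first LS array alone the differences were 1.89 for CAP1 (adjusted p = 0.498) and 2.21 for SLM1 (adjusted p = 0.456), against 3.55 for SLM1 with both. For DAL3 the HS arrays were near the usual level and the gap came from low LS arrays, most of all the second: with the first alone the difference was 1.78 ± 0.72. It was the only called gene among 34 of nitrogen catabolite repression and allantoin use.

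**Figure D3:**
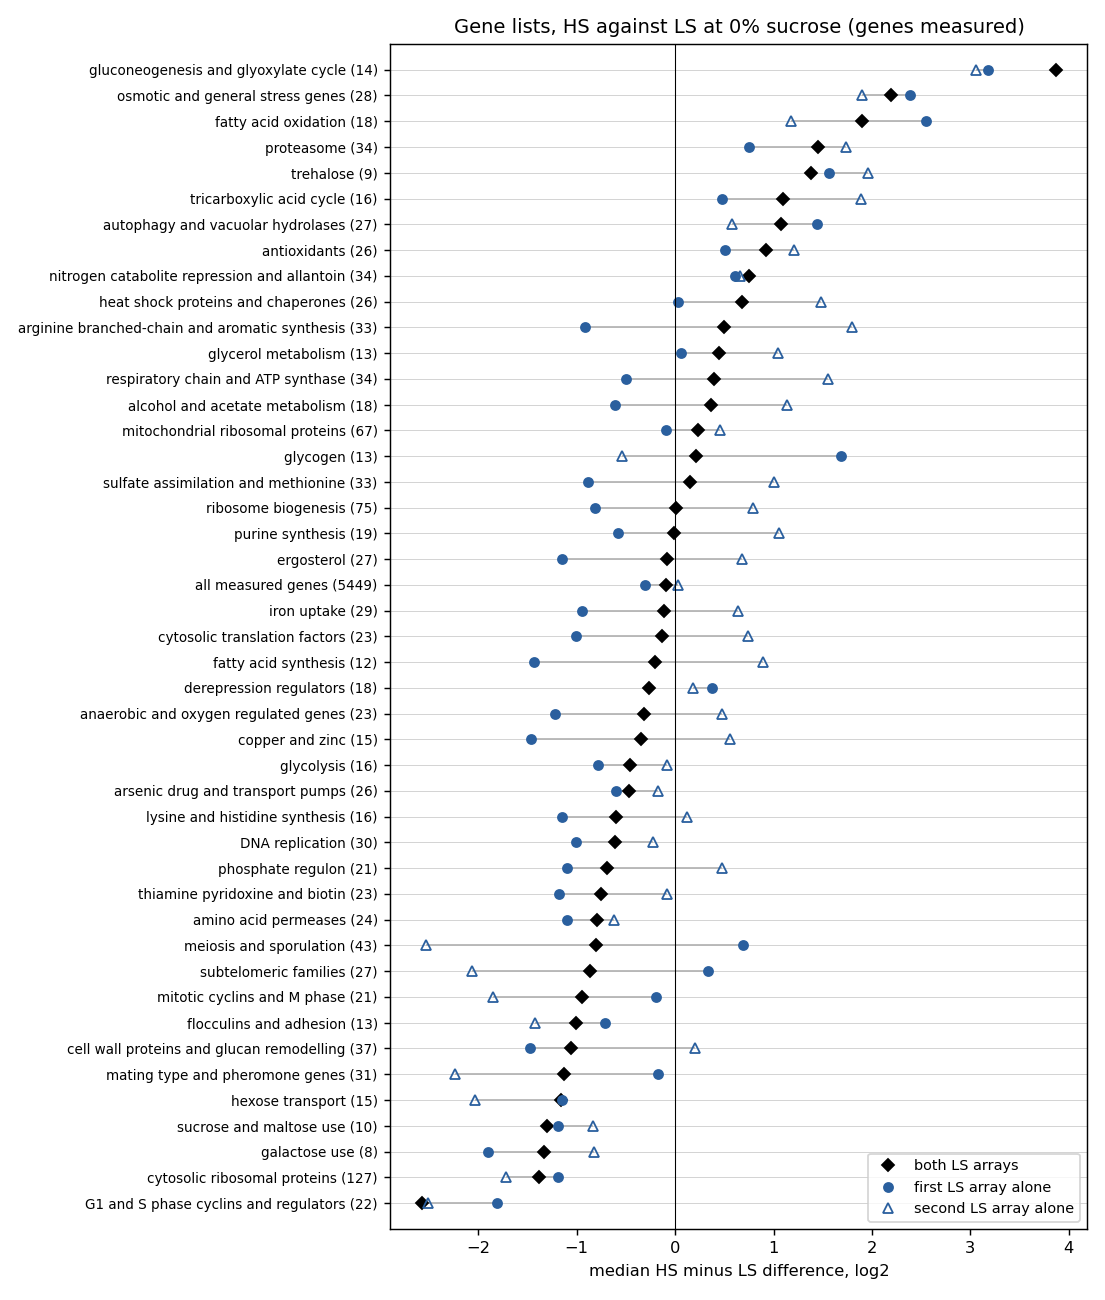
Median HS minus LS difference at 0% sucrose (log2, x axis) of 44 gene lists and of all measured genes, with both LS arrays (black diamonds), the first alone (filled circles) and the second alone (open triangles), and the number of measured genes in brackets. Gluconeogenesis (3.87), stress genes (2.19) and fatty acid oxidation (1.90) lie highest and G1 and S phase genes (-2.57) lowest, while lists such as ergosterol (-1.15 with the first LS array alone, 0.68 with the second alone) change sign with the LS array used.

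G1 is the phase in which cells commit to division. Of 22 G1 and S phase genes 3 were called lower and none higher, against 0.6% and 0.218% of all probe sets. For 14 of them the HS arrays lay below both LS arrays, against 23% of all probe sets. The median difference was -2.57, the most negative of the lists, or -1.81 with the first LS array alone. CLN1, a G1 cyclin, had 0.193 and 0.102 in HS and 1.43 and 2.92 in LS (-3.86 ± 0.87, adjusted p = 0.0431). YOX1, a homeobox repressor of genes of early G1, had 0.201 and 0.130 in HS and 2.61 and 2.54 in LS (-3.99 ± 0.90, adjusted p = 0.0431). TOS6, a target of the G1 transcription factor SBF that encodes a wall protein, had 0.0756 and 0.114 in HS and 7.58 and 1.15 in LS (-4.99 ± 1.05, adjusted p = 0.0275). The pair of LS arrays agreed best for YOX1, whose difference was -4.01 ± 1.12 with the first alone, and least for TOS6, at -6.35 ± 1.18 with the first alone. CLB6, a cyclin of S phase (0.184 and 0.113 in HS, 3.24 and 0.631 in LS), and CDC6, which loads the replication helicase (0.0646 and 0.0407 in HS, 0.762 and 1.99 in LS), also had HS arrays below both LS arrays. Of 30 DNA replication genes none was called by limma with all arrays. At an unadjusted p under 0.05, 5 were lower in HS, against 423 of all 5498 probe sets. All 30 were negative with the first LS array alone, against 3230 of all 5449 genes. In RNA from whole cultures, fewer cells in a phase and less RNA per cell cannot be told apart.

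The cell surface was represented among the genes lower in HS. Of 37 cell wall genes 2 were called lower and none higher, against 0.6% and 0.218% of all probe sets. CIS3, a wall glycoprotein of the PIR family, had 0.206 and 0.216 in HS and 2.19 and 1.99 in LS, with close agreement within each yeast (-3.31 ± 0.72, adjusted p = 0.0379). DSE4, a glucanase with which daughter cells part from their mothers, had 0.406 and 0.138 in HS and 4.66 and 2.21 in LS (-3.76 ± 0.86, adjusted p = 0.0441). The median of the 37 was -1.06 with both LS arrays, -1.48 with the first alone and 0.21 with the second alone. The sign of the list thus depended on the LS array. Of the 37 genes, EGT2, another gene of cell separation, was low on both HS arrays and high on both LS arrays (0.751 and 0.347 in HS, 4.02 and 5.57 in LS, adjusted p = 0.0502 with all arrays). DSE2 was low on the second LS array as well (0.325 and 0.261 in HS, 6.32 and 0.10 in LS). CSI2, a gene linked to chitin synthesis, had 0.207 and 0.149 in HS and 2.82 and 4.10 in LS (adjusted p = 0.0268). FLO11, the flocculin of invasive growth and of biofilms, had 0.311 and 0.275 in HS and 7.29 and 3.77 in LS (-4.16 ± 1.08, adjusted p = 0.0751, or 0.00450 without the 6 arrays).

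DIP5, the permease for glutamate and aspartate, had ratios of 0.0134 and 0.0151 in HS, against 0.544 and 0.758 in LS. All 4 arrays were below the usual level, and the difference was -5.50 ± 1.0 (45.1-fold, adjusted p = 0.0171), with -5.26 ± 1.24 from the first LS array alone (adjusted p = 0.137). It was the only one of 24 amino acid permease genes called with all arrays. For 10 of the 24 the HS arrays lay below both LS arrays and for 1 above, against 23% and 16.4% of all probe sets. Among the 10 was GNP1, a permease for glutamine (0.0619 and 0.151 in HS, 1.05 and 0.350 in LS). Other called transport genes were AMF1, an ammonium facilitator (0.131 and 0.124 in HS, 3.63 and 1.24 in LS), TPO2, an exporter of polyamines (0.106 and 0.182 in HS, 1.07 and 12.7 in LS), and YHK8, a presumed drug exporter (0.0749 and 0.322 in HS, 2.51 and 5.32 in LS). The LS arrays of TPO2 lay far apart, so its difference was -4.73 with both LS arrays and -2.95 ± 1.16 with the first alone. PMP2, a small protein bound to the plasma membrane proton pump, had 0.0842 and 0.399 in HS and 1.33 and 1.81 in LS, and HAL5, a kinase of ion tolerance, had 0.205 and 0.0889 in HS and 2.71 and 3.35 in LS. The difference of AMF1 was -4.06 with both LS arrays and -4.83 with the first alone.

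In metal uptake, FRE4, a ferric reductase, had 0.0619 and 0.0472 in HS and 2.17 and 1.23 in LS (-4.92 ± 1.01, adjusted p = 0.0268), the only one of 29 iron genes called. ZPS1, a surface protein made when zinc is scarce, had 0.0633 and 0.124 in HS and 2.0 and 1.03 in LS (-4.02 ± 0.78, adjusted p = 0.0249), the only one of 15 copper and zinc genes called. For both genes the HS arrays were far below the usual level and the LS arrays at or above it. The median of the copper and zinc list was -0.34 with both LS arrays, -1.46 with the first alone and 0.55 with the second alone. Its sign thus depended on the LS array. Among its members were ZRT1, the high-affinity zinc importer (0.0886 and 0.20 in HS, 1.61 and 1.46 in LS), and ZAP1, the activator of the zinc genes (0.511 and 0.416 in HS, 2.25 and 3.26 in LS). For both, the second LS array lay on the same side as the first.

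Among sugar-use genes, GAL10 (YBR019C), the epimerase of galactose metabolism, had 0.341 and 0.451 in HS and 35.7 and 10.1 in LS. Both HS arrays were below the usual level and both LS arrays at least 10.1 times it, a difference of -5.60 ± 0.83 (48.5-fold, adjusted p = 0.00291). With the first LS array alone it was -6.51 ± 0.95 and still called (adjusted p = 0.0105). GAL1, the galactokinase gene beside it, had 1.03 and 1.02 in HS and 13.7 and 9.45 in LS (-3.47 ± 0.83, adjusted p = 0.0539), and the galactose permease gene GAL2 had 0.379 and 0.508 in HS and 38.4 and 3.35 in LS (adjusted p = 0.0583). Of 8 measured galactose genes 1 was called lower and none higher, against 0.6% and 0.218% of all probe sets. Their median was -1.34. GAL1, GAL2 and GAL10 were called when the 6 arrays were left out.

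IMA5, an isomaltase, was the called gene among 10 of sucrose and maltose use, with 0.743 and 0.188 in HS and 16.6 and 23.7 in LS (-5.73 ± 1.28, adjusted p = 0.0431). All 10 had a negative difference with the first LS array alone, as had 3230 of all 5449 measured genes. SUC2, the invertase that splits sucrose outside the cell, had 1.37 and 2.58 in HS and 25.4 and 6.77 in LS. Its difference of -2.80 ± 0.97 did not pass (adjusted p = 0.205) until the 6 arrays were left out (adjusted p = 0.00725). MAL11, a maltose permease, had 1.87 and 3.84 in HS and 22.9 and 2.52 in LS, so that the second LS array lay between the HS arrays (adjusted p = 0.580, or 0.0299 without the 6). The 15 measured hexose transport genes had a median difference of -1.16, or -1.15 with the first LS array alone and -2.03 with the second alone. Of the 15, 7 had HS arrays below both LS arrays and 1 above, against 23% and 16.4% of all probe sets. HXT1, of low affinity, had 0.0399 and 0.0857 in HS and 0.0363 and 0.239 in LS, and HXT3 had 0.488 and 0.404 in HS and 0.80 and 0.486 in LS. HXT5, the transporter of slowly growing cells, had 7.11 and 2.18 in HS and 1.80 and 0.676 in LS (1.83 ± 0.75, adjusted p = 0.297). None of the 15 was called by limma with all arrays. At an unadjusted p under 0.05, 1 was higher and 2 were lower in HS, against 294 and 423 of all 5498 probe sets. DOG2, which removes phosphate from 2-deoxyglucose phosphate, was called, with 0.0302 and 0.156 in HS and 1.93 and 17.6 in LS (-6.41 ± 1.21, adjusted p = 0.0211). With the first LS array alone the difference of DOG2 was -4.81 ± 1.36 (adjusted p = 0.228).

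The gene with the most negative difference was REE1, a regulator of enolase, with 0.0451 and 0.114 in HS and 56.8 and 11.4 in LS (-8.47 ± 1.75, 355-fold, adjusted p = 0.0268). With the first LS array alone the difference was -9.63 ± 2.14 (adjusted p = 0.110). Its neighbours on chromosome X, by the RefSeq gene order, were called lower in HS too. YJL218W, on its one side, had 0.0503 and 0.0986 in HS and 3.94 and 7.67 in LS, and IMA5 is on its other side. With all arrays, these 3 genes were the only run of 3 or more adjacent measured genes called in 1 direction. Without the 6 arrays there were 8 runs, among them GAL10, GAL1 and FUR4, the run of SRB2, NCP1 and DOG2, and that of HOL1, BIO5, BIO4 and BIO3, all lower in HS. The called genes included 4 of a list of 27 genes of subtelomeric families, all lower in HS: REE1, PAU23, COS7 and COS12. Over all probe sets 0.6% were called lower. PAU23, a seripauperin wall protein, had 0.208 and 0.297 in HS and 2.06 and 5.40 in LS, COS7 had 0.170 and 0.0431 in HS and 12.6 and 2.28 in LS, and COS12 had 0.464 and 0.752 in HS and 3.29 and 8.25 in LS. The differences with both LS arrays and with the first alone were -3.74 and -3.05 for PAU23, -5.97 and -7.20 for COS7, and -3.14 and -2.48 for COS12. The COS7 probe set has the suffix that marks possible reading of related sequences, so COS7 and its family cannot be told apart. The median of that list changed sign with the LS array, at 0.34 with the first alone and -2.07 with the second alone, so the list as a whole showed no stable direction.

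BIO5 (YNR056C), a carrier that brings a biotin precursor into the cell, had 0.0869 and 0.142 in HS and 18.5 and 14.8 in LS. The LS arrays agreed closely, and the difference was -7.22 ± 1.02 (149-fold, adjusted p = 0.00291), or -7.38 ± 1.27 with the first LS array alone (adjusted p = 0.0409). BIO3 and BIO4, the enzymes of the next steps toward biotin and its neighbours on chromosome XIV, were lower in HS on all arrays as well but were called only without the 6 arrays. BIO3 had 0.260 and 0.506 in HS and 4.50 and 1.58 in LS (adjusted p = 0.112, or 0.0183), and BIO4 had 0.519 and 0.572 in HS and 3.13 and 1.55 in LS (adjusted p = 0.318, or 0.0161). BIO2, the biotin synthase gene elsewhere in the genome, had 0.281 and 0.484 in HS and 4.09 and 0.794 in LS (adjusted p = 0.437, or 0.0134).

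A pair of genes of the alpha mating type was called lower in HS. HMLALPHA1, the silent copy of the alpha1 activator, had 0.146 and 0.313 in HS and 2.33 and 10.5 in LS (-4.53 ± 0.89, adjusted p = 0.0249), and its probe set can also read related sequences, so that the copy at the mating-type locus cannot be told apart. With the first LS array alone its difference was -3.44 (adjusted p = 0.261). AFB1, the a-factor barrier protein secreted by alpha cells, had 0.0588 and 0.250 in HS and 3.60 and 5.17 in LS (-5.15 ± 0.79, adjusted p = 0.00344), and -4.89 ± 0.97 with the first LS array alone (adjusted p = 0.0535). HMLALPHA1 was the only gene called of 31 mating-type and pheromone genes, and AFB1 was not on that list. The median of the 31 was -1.13 with both LS arrays, -0.17 with the first alone and -2.24 with the second alone. With the first alone 15 were positive and 16 negative, so the list had no common direction there. The pheromone genes MF(ALPHA)1 (0.122 and 0.235 in HS, 0.890 and 1.20 in LS) and MF(ALPHA)2 (0.349 and 0.161 in HS, 1.16 and 3.62 in LS) were among those lower in HS. HO, the mating-type switching endonuclease, had 0.301 and 0.712 in HS and 1.01 and 5.94 in LS (-2.40 ± 1.26, adjusted p = 0.425).

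Other genes called lower had regulatory roles or none that is known. ERT1, a transcription factor of gluconeogenic genes, had 0.236 and 0.443 in HS and 1.86 and 3.69 in LS (adjusted p = 0.0249), the opposite direction to ICL1 and MLS1. HMS2, a gene related to heat shock factors, had 0.119 and 0.0747 in HS and 3.39 and 1.36 in LS, and SRB2, a Mediator subunit, had 0.162 and 0.529 in HS and 7.76 and 2.72 in LS. With both LS arrays and with the first alone the differences were -4.51 and -5.17 for HMS2 and -3.97 and -4.73 for SRB2. Among genes without an assigned role, YAL065C had 0.01 and 0.0355 in HS, where 0.01 is the lowest value of the table, and 3.63 and 6.80 in LS. YOL159C-A had 0.0640 and 0.0236 in HS and 3.84 and 16 in LS, YHR213W-A had 0.806 and 0.328 in HS and 16.2 and 108 in LS, YOL163W had 0.0578 and 0.101 in HS and 0.857 and 13 in LS, and YGR146C-A had 0.0780 and 0.241 in HS and 1.51 and 4.07 in LS. The differences with both LS arrays and with the first alone were -7.65 and -6.63 for YOL159C-A, -6.35 and -4.97 for YHR213W-A, and -4.18 and -3.47 for YGR146C-A. The LS arrays of YOL163W lay far apart, and its difference of -5.45 was -3.49 ± 1.26 with the first alone.

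The same yeasts were then compared over the arrays with sucrose, which share no array with those at 0%. The spread of each gene is estimated jointly for both comparisons, so their calls are not independent. The mean HS minus LS difference over 5 to 50% sucrose was called for 802 probe sets (14.6%), 216 higher in HS (3.93%) and 586 lower (10.7%), or 636 higher and 606 lower after quantile normalization. Of the 33 genes lower in HS without sucrose, 21 (63.6%) were also lower over 5 to 50% sucrose, which is 3.58% of the 586. Of the 12 genes higher in HS without sucrose, 1 (8.33%), DAL3, was also higher with sucrose, 0.463% of the 216, and 7 were called lower. Without the 6 arrays 145 of the 402 lower probe sets (36.1%) and 42 of the 248 higher ones (16.9%) were called in the same direction over 5 to 50%, which had 1547 calls in that fit.

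Several sugar-use, biotin and chromosome X genes were lower in HS with and without sucrose. GAL10 differed by -5.60 ± 0.83 at 0% and by -3.67 ± 0.34 over 5 to 50% (adjusted p = 9.72e-07). BIO5 differed by -7.22 and -3.83 ± 0.42, REE1 by -8.47 and -5.80 ± 0.72, and COS7 by -5.97 and -5.69 ± 0.49, in each case with the sign the same at all 6 concentrations. The gap of GAL10 was uneven, at -0.22 at 5%, -1.01 at 10% and -7.11 at 50% sucrose. At 5% its HS arrays (0.922 and 0.682) lay between its LS arrays (1.67 and 0.515). HAL5 (-4.48 and -4.63) and DSE4 (-3.76 and -4.24) were also lower in HS in both comparisons. SUC2, not called at 0% (-2.80 ± 0.97), was called over 5 to 50% (-3.20 ± 0.40, adjusted p = 3.67e-05), as were MAL11 (-3.30 ± 0.43) and FLO11 (-3.14 ± 0.44).

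A test of the difference itself, HS minus LS at 0% minus its mean over 5 to 50%, called 68 probe sets (1.24%), 54 more positive without sucrose and 14 more negative. After quantile normalization the split was 72 more positive and 30 more negative. Without the 6 arrays 471 were called (8.57%), 286 more positive and 185 more negative. Without the 40% arrays, an alternative added after seeing the data, 29 were called, all of them among the 68. Leaving out the first HS array at 0% gave 0 calls (limma, 370 at an unadjusted p under 0.05), the second HS array 18, the first LS array 200 and the second LS array 6. OM45 had the smallest p, at 5.75 without sucrose and -1.40 ± 0.44 with it, a contrast of 7.15 ± 1.15 (adjusted p = 0.00777). At 5% sucrose its ratios were 0.826 and 0.424 in HS and 0.634 and 3.58 in LS, and at 40% they were 1.33 and 3.76 in HS and 58 and 49.2 in LS. The gene was thus high in HS without sucrose and at 50%, and in LS at 40 and 50%.

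DIP5 ran the other way, at -5.50 without sucrose and 1.12 ± 0.41 with it (contrast -6.62 ± 1.08, adjusted p = 0.00777). Its ratio was 3.81 and 2.53 in HS and 2.65 and 2.0 in LS at 5% sucrose. At 50% sucrose DIP5 was again low in HS, with 0.0412 and 0.187 in HS and 0.801 and 1.82 in LS, a difference of -3.78 that the mean over 5 to 50% hides. SPG4 (7.40), MSC1 (6.64), FOX2 (6.30), TKL2 (6.43) and GND2 (5.70) had positive contrasts. Genes not called at 0% alone also had them, as FBP1 (5.91), TPS1 (4.87), PCK1 (4.30) and STL1 (4.28), and 17 of the 68 probe sets were called at 0%. The smallest p among the genes not called at 0% were those of RGI2, a gene of respiratory growth (27.9 and 10.3 in HS and 1.05 and 2.01 in LS without sucrose, contrast 5.80 ± 0.98, adjusted p = 0.00777), and of the stationary phase gene SPG1 (7.48 and 4.66 in HS and 0.472 and 0.984 in LS without sucrose, contrast 4.95 ± 0.83, adjusted p = 0.00777). CLN1 (-5.10), YOX1 (-4.87) and TOS6 (-5.38) had negative contrasts, and the mean of CLN1 over 5 to 50% was higher in HS (1.24 ± 0.36, adjusted p = 0.0252). These means join concentrations of opposite sign. At 20 and 30% sucrose the differences were 3.09 and 2.82 for CLN1, 2.93 and 2.31 for YOX1, and 3.10 and 4.43 for TOS6. At 40 and 50% they were negative, at -0.90 and -0.76 for CLN1, -1.45 and -0.17 for YOX1, and -1.11 and -4.15 for TOS6. For GAL10 (-1.93 ± 0.89, adjusted p = 0.395), BIO5 (-3.39 ± 1.10, adjusted p = 0.157) and REE1 (-2.67 ± 1.89, adjusted p = 0.673) the contrast did not pass, which does not show equal differences.

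**Figure D4:**
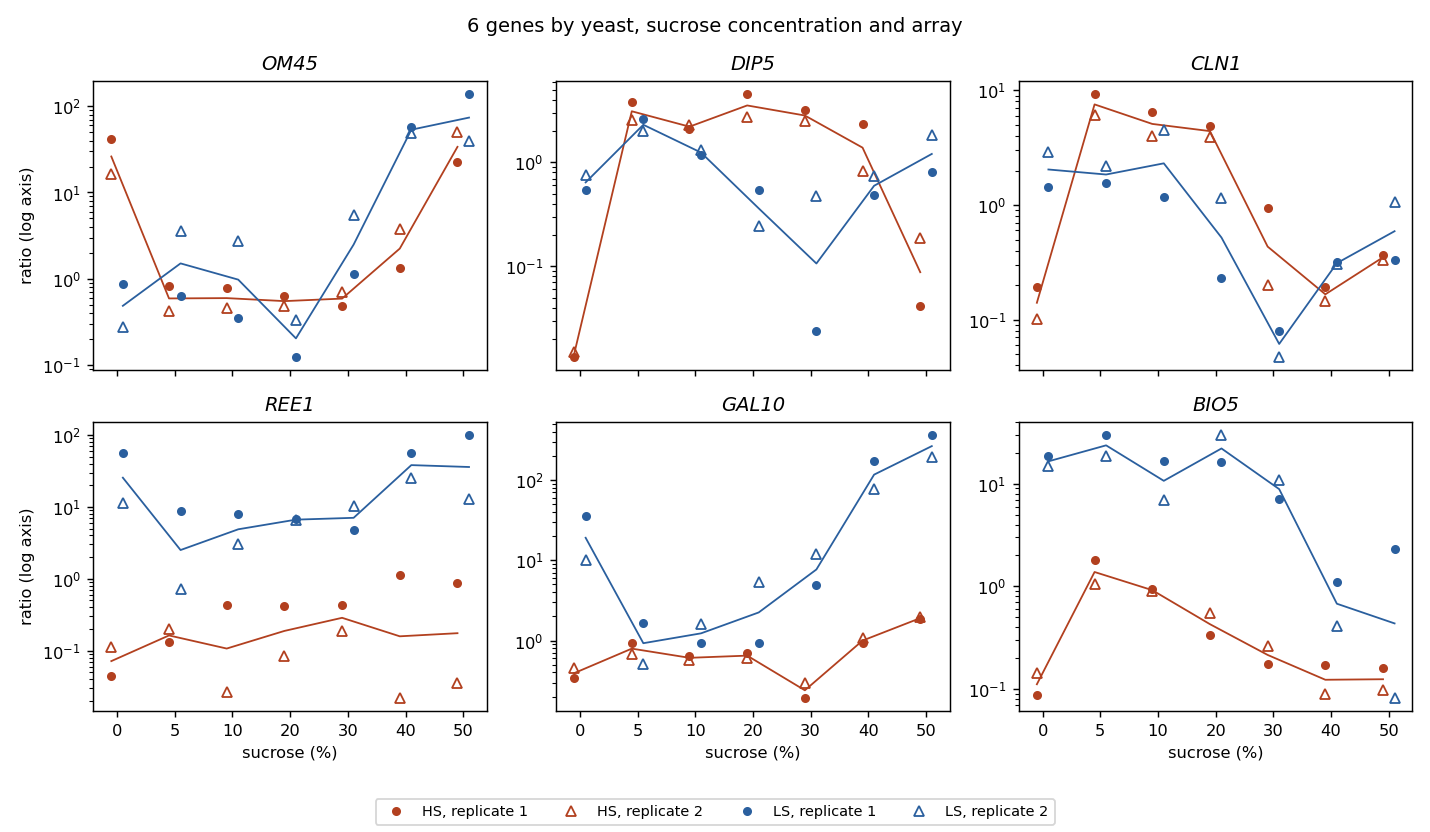
Ratio (log y axis) of 6 genes by sucrose concentration (x axis, %) on each HS array (red) and LS array (blue), with lines through the means of log2 ratios. OM45 is high in HS at 0% (42.2 and 16.2) and low at 5% (0.826 and 0.424), DIP5 and CLN1 are low in HS at 0%, and REE1, GAL10 and BIO5 lie lower in HS at 0%.

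By list, the median difference of gluconeogenesis and glyoxylate cycle genes was 3.87 at 0%, -0.87 at 5% and -3.10 at 40% sucrose. Fatty acid oxidation ran from 1.90 at 0% through -1.10 at 5% to -3.22 at 40%, and stress genes had 2.19, -0.46 and -3.15 at the same concentrations. The sign of these 3 lists was positive at 0% and negative at 5 and 40%, with 10% the only other concentration at which any of them was above 0 (0.39 for gluconeogenesis). G1 and S phase genes had -2.57 at 0%, 0.78 at 5% and -0.51 at 40%. The galactose list had -1.34 at 0%, -0.82 at 5% and -5.48 at 40%, and the sucrose and maltose list -1.30, -0.59 and -2.98, negative at all 7 concentrations.

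**Figure D5:**
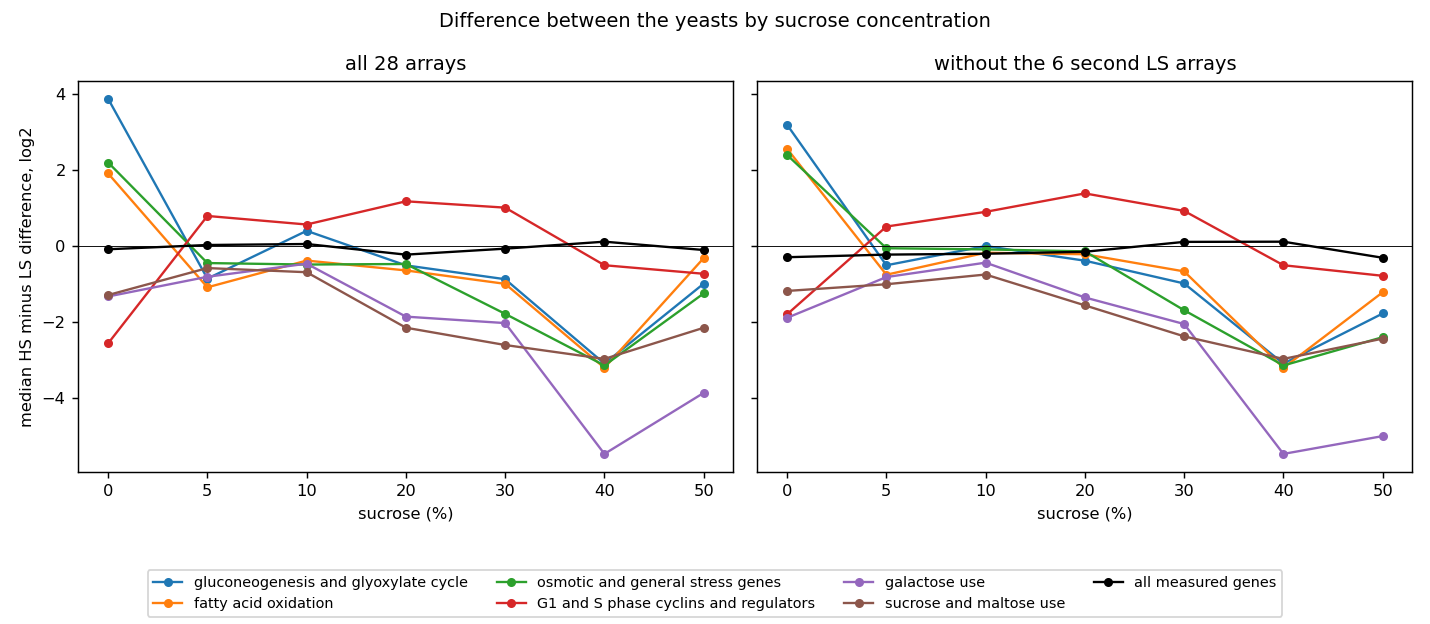
Median HS minus LS difference (log2, y axis) of 6 gene lists and of all genes by sucrose concentration (x axis, %) with all 28 arrays (left) and without the 6 second LS arrays (right). In both panels gluconeogenesis, fatty acid oxidation and stress genes are above 0 without sucrose, G1 and S phase genes are below 0 there (-2.57 with all arrays), and the galactose and sucrose lists are below 0 at every concentration.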

How the data were processed

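Poly(A) RNA of 28 samples was measured on Affymetrix arrays, of which 4 (HS and LS, 0% sucrose, 2 replicates each) carry the comparison. The deposited values are a linear ratio. Per the labels of the series, the authors used GeneSpring 7.0, scaled each chip on genes with positive values without S. pombe, and then scaled each gene. The sources used here do not give the probe summary method. The platform annotation gave 1 gene symbol for 7244 of 10928 probe sets, several for 1 and none for 3683, and 12 symbols were updated. Probe sets of S. cerevisiae with a symbol were tested (5498), and 1746 of S. pombe served as background.

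Log2 ratios were not scaled again. One mean per group was fitted for all 14 groups (limma 3.58.1, R 4.3.3, empirical Bayes without trend, 14 residual and 5.41 prior degrees of freedom), with 2-sided tests and Benjamini-Hochberg adjustment per comparison. The fit was tested on simulated data. Named genes were the 12 highest and 12 lowest called genes, up to 4 called members per list, a fixed set of 15, the 6 smallest p of the 0% against 5 to 50% contrast and runs of at least 3 adjacent called genes. Further list members named in the text were picked once their values had been seen. The members and lists were chosen with earlier results of these data known. Lists used 1 probe set per gene. Same-numbered arrays were checked for pairing (r of deviations -0.28 to 0.26). The check could not exclude pairing, and none was modelled in the main fit. Alternatives were quantile normalization, median centring, an added offset of 0.216, the 5th percentile, on the linear scale, trend and robust moderation, array weights, a replicate block, only the compared concentrations, a required 2-fold change, S. pombe included, no probe sets with a median below 0.99, leaving out the 6 second LS arrays with raised S. pombe signal, and leaving out each array. Figures were drawn with matplotlib 3.10.9.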

Additional observations from a re-analysis of the deposited data

Results flagged for a closer look

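The difference between the yeasts was not the same with and without sucrose for 68 probe sets by the contrast of 0% against the mean of 5 to 50% (limma, adjusted p under 0.05). Of the genes chosen by the naming rule, 23 were among them, further list members not being counted, and 17 of these 23 were also called without the 40% arrays. The log2 contrast was positive for OM45 (7.15), SPG4 (7.40), MSC1 (6.64), RGI2 (5.80), SPG1 (4.95), FOX2 (6.30), MYO3 (4.04), GND2 (5.70), TPS1 (4.87), TKL2 (6.43), FBP1 (5.91), CAP1 (3.69), SLM1 (3.90), STL1 (4.28), MLS1 (5.29) and PCK1 (4.30). It was negative for DIP5 (-6.62), CLN1 (-5.10), YOX1 (-4.87), CSI2 (-4.78), TOS6 (-5.38), CIS3 (-3.52) and AFB1 (-3.70).

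The S. pombe probe sets gave a signal although no fission yeast was sampled. Their median ratio was 8.44 on the second LS array at 0% sucrose, against 0.183 and 0.119 on the HS arrays and 0.382 on the first LS array. The median log2 difference of HS minus LS over these probe sets was -3.50 with both LS arrays, -1.18 with the first alone and -5.87 with the second alone. The cause was not tested.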

How the results depend on the processing

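The counts of calls depended on the fit. At 0% sucrose 45 probe sets were called as reported, 58 after quantile normalization, 50 after median centring, 56 with the offset, 29 with trend and robust moderation, 2 with array weights, 65 with a replicate block, 0 with only the 4 compared arrays (limma, 385 at an unadjusted p under 0.05), 6 with a required 2-fold change, 13 with S. pombe probe sets included, 14 without the 40% arrays and 650 without the 6 second LS arrays. Array weights give both arrays of a pair equal weight and cannot tell which one is off. Leaving out 1 array at 0% gave 0 to 486. For 5 to 50% sucrose, 802 were called as reported, 1242 after quantile normalization, 79 with a required 2-fold change, 346 without the 40% arrays, 1547 without the 6 and 536 to 1401 with 1 array left out. For the contrast of 0% with 5 to 50%, 68 were called as reported, 113 with the offset, 0 with array weights (limma, 417 at an unadjusted p under 0.05), 108 with a replicate block, 19 with a required 2-fold change, 35 with S. pombe included, 29 without the 40% arrays, 471 without the 6 and 0 to 200 with 1 array left out.

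Replicate numbers are shared between the yeasts. Deviations of same-numbered arrays correlated at r = -0.14 at 0% and at 0.26 at 40%, where neither LS array had raised S. pombe signal. At the other concentrations r was negative. The 6 second LS arrays enter all of these values except that at 40%, so the check cannot exclude a link between same-numbered arrays. The replicate block kept all 45 calls and gave 1091 calls over 5 to 50% sucrose. With the numbers crossed, an alternative added after seeing the data, the counts were 79, 1144 and 107. None of the 45 called genes reversed under any alternative, which was mostly fixed beforehand. Their HS and LS arrays do not overlap, so leaving out arrays cannot reverse them. Most other alternatives leave the difference itself unchanged. Among genes not called, HXT1 reversed to 0.69 without the second LS array and without the 6, against -0.67 as reported and -2.03 without the first LS array. ADH2 reversed to -0.19 without the first HS array, against 0.20 as reported and 0.59 without the second. MAL11 reversed to 0.085 without the first LS array, against -1.51 as reported and -3.10 without the second. The cause was not tested.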

Other observations

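The direction of some lists depended on the LS array. The 27 ergosterol genes had a median difference of -0.09 with both LS arrays, -1.15 with the first and 0.68 with the second. Over all genes these medians were -0.09, -0.30 and 0.03. HMG1, a reductase early in the pathway, had 0.557 and 1.05 in HS and 4.69 and 0.0308 in LS. ERG28, a scaffold of the pathway, had 0.893 and 1.05 in HS and 3.62 and 1.61 in LS, lower in HS on all 4 arrays. The 21 genes of the phosphate regulon had -0.69 with both LS arrays, -1.09 with the first and 0.47 with the second. PHO5, a secreted acid phosphatase, had 0.622 and 0.971 in HS and 12.3 and 0.471 in LS, so the second LS array was below both HS arrays. For 23 genes regulated by oxygen the medians were -0.32, -1.22 and 0.47 in the same order. Among them HEM13, a heme synthesis enzyme raised at low oxygen, had 0.365 and 0.536 in HS and 3.40 and 0.925 in LS.

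Meiosis genes showed the reverse dependence. The median of 43 such genes was 0.69 with the first LS array alone and -2.53 with the second alone. The sporulation gene SPO19 had 1.93 and 1.56 in HS and 0.0380 and 0.999 in LS, and the septin gene SPR3 had 1.5 and 1.18 in HS and 0.0490 and 2.91 in LS. In respiration, NDE2, an external NADH dehydrogenase of mitochondria, had 14.8 and 8.67 in HS and 0.538 and 2.69 in LS, while QCR8, a subunit of complex III, had 0.346 and 0.707 in HS and 11.6 and 0.955 in LS and was lower in HS over 5 to 50% sucrose as well (-5.46 ± 0.45, adjusted p = 3.45e-07). These genes were chosen after their values were seen.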
